A study of Homo sapiens with 6 samples.

Results

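The genes described here are 33 genes of the lysosome and of its transcriptional control, among 14884 genes measured on 6 Affymetrix arrays. The rule that picks them uses symbols and no measured value, although it was written with earlier results of these data known. It takes every cathepsin (CTS and 1 capital letter), LAMP and LAPTM gene, every symbol that begins with ATP6V, and 24 listed lysosomal genes, of which 11 were measured. RNA came from Caco-2, a human line derived from a colon carcinoma, whose cells take on features of small intestinal enterocytes in long culture. Subconfluent cells received lentivirus and were kept for 17 days. The 3 groups held 2 arrays each and carried scramble shRNA (the control hairpin), FAM46A-shRNA#2 or FAM46A-shRNA#4, the last pair being different hairpins against FAM46A, also called TENT5A, which belongs to the non-canonical poly(A) polymerases. The submitters ask which genes depletion of FAM46A affects in these cells. All groups shared the cell line, the lentiviral delivery and the expression of a hairpin, and the level of FAM46A itself was not analysed here, so the groups follow the labels.

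The lysosome is the acidic compartment in which cells break down material taken up by endocytosis or delivered by autophagy. Soluble hydrolases, among them the cathepsins, do the cutting and reach it mostly through mannose 6-phosphate receptors. Heavily glycosylated membrane proteins line it, a vacuolar proton pump (V-ATPase) acidifies it, and transcription factors of the MiT/TFE family, TFEB and TFE3 among them, switch on many of its genes through short E-box motifs. In enterocytes this compartment also digests endocytosed luminal protein.

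Of the 33 genes, 15 were cathepsins and 9 were membrane proteins. The rest were 3 enzymes of glycan breakdown, the acid ceramidase ASAH1, the saposin precursor PSAP, the tripeptidyl peptidase TPP1, the factors TFEB and TFE3, and 1 antisense RNA, ATP6V0E2-AS1. No subunit of the proton pump was among them (0 protein-coding ATP6V genes), so the pump itself is not described and the antisense RNA is its only namesake. Each of the 33 had 1 probe set. Values were read as log2, although no source used here states the base, and had been centred for each probe set on its median across arrays. A value of 0 is thus that median. Levels cannot be compared between genes, and no signal over background was analysed here.

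Lysosomal genes were mostly lower in cells with a hairpin against FAM46A than in cells with the scramble hairpin. CD68 fell most (4.03-fold), and the cathepsins CTSA, CTSD, CTSV, CTSS and CTSB, the peptidase TPP1 and the glycan enzymes HEXA and NEU1 fell by 1.5-fold to 2.3-fold. LAPTM4B and the antisense RNA rose with each hairpin. LAMP3 and the factor TFE3 were higher for the mean of both hairpins, but taken singly only shRNA#4 passed the test. With both hairpin groups averaged and set against scramble, 17 of the 33 genes were lower and 4 higher, which is 63.6% called (limma, Benjamini-Hochberg adjusted p under 0.05 over all genes). Over all 14884 genes, 25.4% were called in that comparison, 10.6% lower and 14.8% higher. Of the 33 genes, 32 are protein-coding, and 62.5% of these were called. Among the 11916 protein-coding genes measured, 29.6% were called, 1447 lower and 2077 higher. The median log2 difference of the 33 genes was -0.22, and 26 of them lay below 0, against a median of 0.0028 over all genes. The 33 genes were not tested as a set.

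The same appeared array by array. The median over the 33 genes was 0.13 and 0.18 in the scramble arrays, between -0.021 and -0.017 in the shRNA#2 arrays and between -0.073 and -0.0021 in the shRNA#4 arrays. For 20 genes all 4 hairpin arrays lay below both scramble arrays, for 3 all lay above, and for 10 the groups overlapped. Over all genes, 16.7% had the 4 hairpin arrays below both scramble arrays and 19.5% above. Of the 11916 protein-coding genes, 2121 had them below and 2628 above. In bulk RNA, fewer cells of a type and less RNA per cell cannot be told apart.

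**Figure D1:**
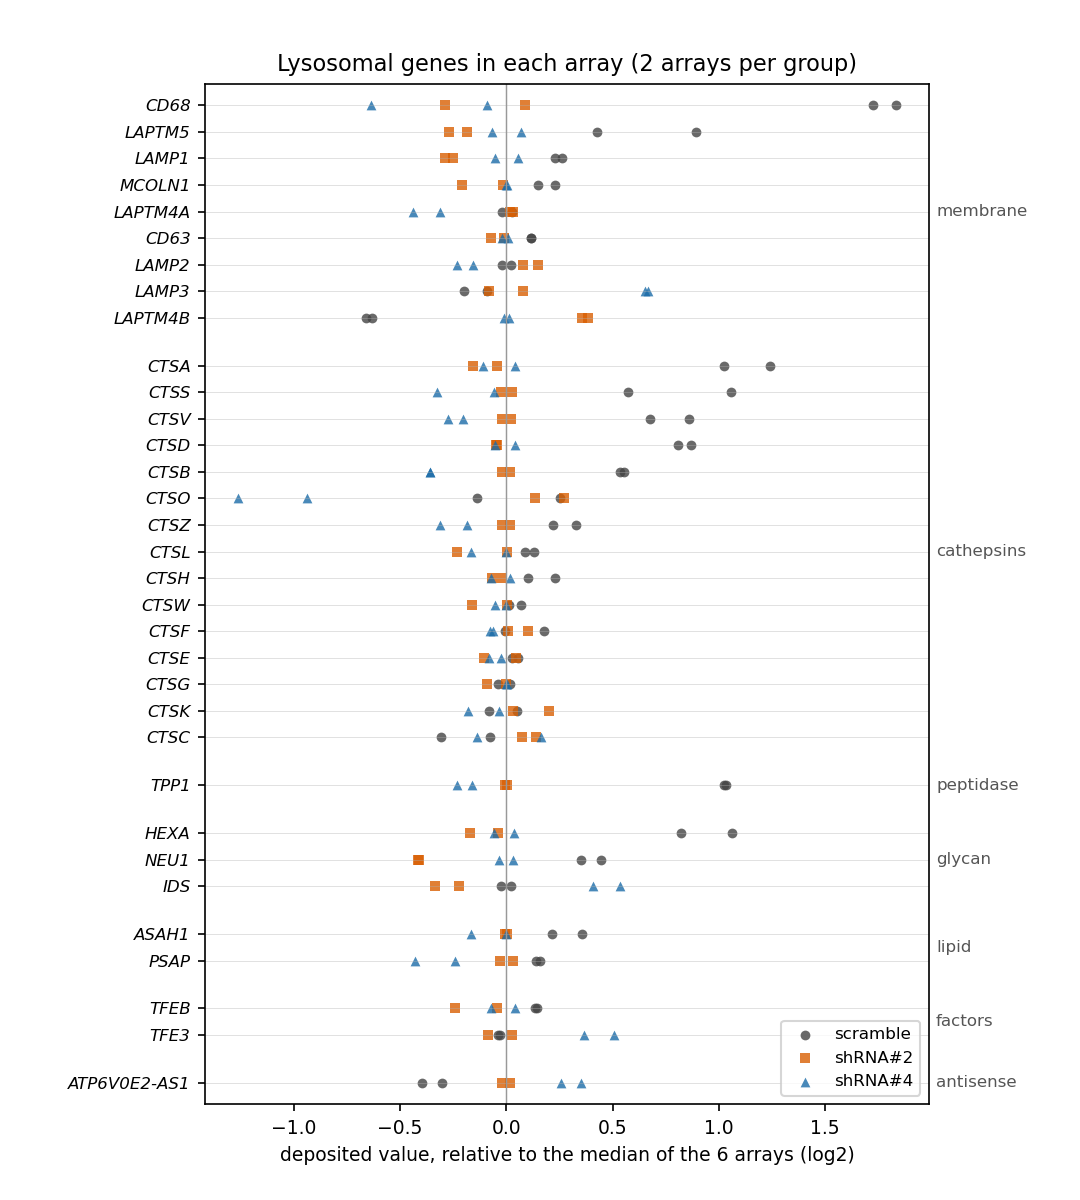
Each row is 1 of the 33 genes, grouped by role, and each point is 1 array (circles scramble, squares shRNA#2, triangles shRNA#4), plotted at its deposited log2 value relative to the median of the 6 arrays. For CD68, CTSA, TPP1 and HEXA the scramble arrays stood between 0.82 and 1.83 and apart from all hairpin arrays, while LAPTM4B had both scramble arrays at the low end.

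E-box motifs bear on how MiT/TFE factors reach lysosomal promoters, so the stretches of promoter that hold them are shown here for the genes that fell and that the values below turn on. The letters are from RefSeq (GRCh38.p14), 5′ to 3′ on the strand of the gene, and windows ran from 250 bases before to 50 after each annotated start. Of the 33 genes, 22 had a window and 11 had none (ASAH1, CTSB, CTSK, CTSO, CTSS, CTSW, HEXA, LAMP2, LAMP3, LAPTM4B and PSAP). Capitals mark the E-box CACGTG, which reads the same on both strands, in the first 6 stretches. CTSA, CTSD, NEU1, LAMP1 and MCOLN1 fell, and CTSF, which was not called, is shown as a gene that holds the motif without a call.
CTSA, chr20:45891275-45891334, plus strand: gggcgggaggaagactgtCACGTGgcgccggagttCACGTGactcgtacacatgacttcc
CTSD, chr11:1763948-1763997, minus strand: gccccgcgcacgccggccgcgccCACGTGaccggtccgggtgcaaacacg
NEU1, chr6:31862917-31862966, minus strand: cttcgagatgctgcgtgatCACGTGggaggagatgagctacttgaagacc
LAMP1, chr13:113297039-113297238, plus strand: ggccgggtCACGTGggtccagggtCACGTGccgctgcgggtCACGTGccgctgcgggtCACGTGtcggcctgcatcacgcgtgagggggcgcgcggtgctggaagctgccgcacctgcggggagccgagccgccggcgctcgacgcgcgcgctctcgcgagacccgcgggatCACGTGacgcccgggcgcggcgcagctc
MCOLN1, chr19:7522564-7522623, plus strand: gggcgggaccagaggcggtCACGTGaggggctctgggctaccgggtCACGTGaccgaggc
CTSF, chr11:66568647-66568736, minus strand: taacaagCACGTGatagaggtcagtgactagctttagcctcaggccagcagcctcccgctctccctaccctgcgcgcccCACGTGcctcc
For TPP1 the capitals mark another motif, the M-box TCATGTGA, on either strand, and CD68, the gene that fell most, is shown because neither motif was found in its window.
TPP1, chr11:6619423-6619482, minus strand: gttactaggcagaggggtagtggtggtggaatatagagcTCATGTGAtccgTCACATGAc
CD68, chr17:7579488-7579637, plus strand: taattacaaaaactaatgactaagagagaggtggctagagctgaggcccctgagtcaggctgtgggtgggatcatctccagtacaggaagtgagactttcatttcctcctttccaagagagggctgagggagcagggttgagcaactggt

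CACGTG lay in the window of 7 of the 22 genes (31.8%), CTSA, CTSD, CTSF, LAMP1, MCOLN1, NEU1 and CD63. It lay in 7.26% of all 35116 windows and in at least 1 window of 11.0% of the 10749 measured genes that have one. Of the 11 genes lower for the mean of both hairpins, 5 held it, and of the other 11 genes 2 did. On the related lists described further on, 7 of 33 genes called lower held it (21.2%) and 16 of 67 others (23.9%). Among all genes called lower it was present in 139 of 1222 (11.4%), close to its share among all measured genes. LAMP1 held 6 copies, the last across the annotated start and not in the stretch shown, and CTSA, MCOLN1 and CTSF held 2 each. The longer palindrome TCACGTGA, which contains CACGTG, was found for CTSA, LAMP1 and MCOLN1. It lay in 0.98% of all windows and for 1.75% of the measured genes that have one. The full CLEAR motif, which extends TCACGTGA by 1 base at each end, was found for MCOLN1. Its shares were 0.353% of windows and 0.633% of those genes. The M-box TCATGTGA is close in its letters to TCACGTGA, although no site can match both. Searched on both strands, the M-box was found for TPP1 and CD63. Its shares were 1.0% of windows and 1.29% of those genes. A match describes these letters in this window, and binding of a factor was not measured.

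**Figure D2:**
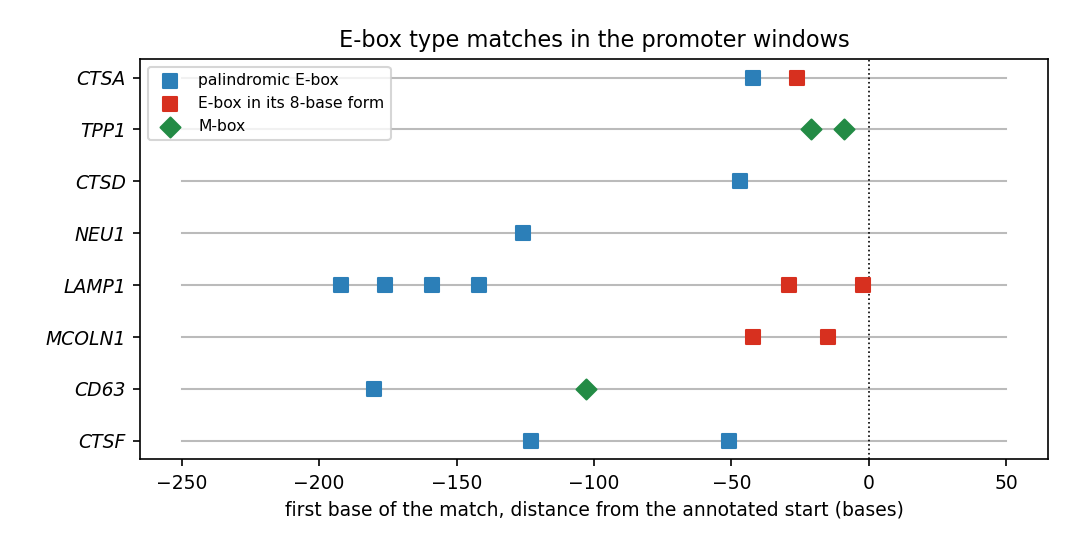
Distance of each motif match from the annotated start (bases, x axis) for the lysosomal genes with a match, 1 line per gene from 250 bases before to 50 after the start, with blue squares for CACGTG, red squares where it lies in TCACGTGA and green diamonds for the M-box. LAMP1 carried 6 CACGTG matches, and the 2 M-box matches of TPP1 lay close to each other just before its start.

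The membrane proteins were divided. CD68 (macrosialin), a heavily glycosylated lysosomal protein best known in macrophages, stood at 1.72 and 1.83 in the scramble arrays, at -0.29 and 0.09 with shRNA#2 and at -0.64 and -0.09 with shRNA#4. Both scramble arrays were far above all hairpin arrays, which were themselves spread over a wide range. CD68 fell by 2.01 ± 0.172 (SE of the fit, n = 2 arrays per group, as for each ± below) on the log2 scale, with a limma adjusted p of 0.000828. LAPTM5, a lysosomal transmembrane protein of blood cells, was at 0.43 and 0.89 under scramble, at -0.27 and -0.18 with shRNA#2 and at 0.07 and -0.07 with shRNA#4. The groups did not overlap, but the scramble arrays differed from each other by more than the hairpin groups did. LAPTM5 fell by 0.77 ± 0.128 (adjusted p = 0.00699).

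Since CD68 and LAPTM5 are also leukocyte genes, other leukocyte and macrophage markers were read beside them. Of the 19 genes on that list 7 were measured, and 14.3% were called for the mean of both hairpins, against 25.4% over all genes. CSF1R, the receptor of a macrophage growth factor, fell by 0.31 ± 0.0531 for the mean of both hairpins, and the other 6 were not called in that comparison, with CD14 at 0.34 ± 0.0978 (adjusted p = 0.0519). SPI1, a transcription factor of myeloid and B cells, fell by 0.20 ± 0.0552 with shRNA#4 (adjusted p = 0.0426). The mean over the list was between -0.0068 and 0.023 in the scramble arrays, between -0.040 and -0.0125 with shRNA#2 and between -0.0084 and -0.0068 with shRNA#4. Whether these markers are at or near 0 in Caco-2 cannot be read from centred values, and their part in the fall of CD68 and LAPTM5 was not tested.

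LAMP1, one of the most abundant proteins of the lysosomal membrane, was at 0.23 and 0.26 under scramble, at -0.29 and -0.25 with shRNA#2 and at -0.05 and 0.05 with shRNA#4. All 3 groups stood apart, with shRNA#2 lowest. It fell by 0.38 ± 0.0488 (adjusted p = 0.00285), by 0.51 with shRNA#2 and by 0.25 with shRNA#4, and the difference of -0.27 ± 0.0564 between hairpins passed the test (adjusted p = 0.0272). MCOLN1, the calcium channel of the lysosomal membrane, was at 0.23 and 0.15 under scramble, at -0.21 and -0.017 with shRNA#2 and within 0.0018 of 0 in both shRNA#4 arrays. The hairpin arrays were all below scramble by a narrow margin. It fell by 0.245 ± 0.0645 (adjusted p = 0.0372), and this call was lost without each array but shRNA#2 replicate 2, the adjusted p from limma reaching 0.198 without scramble replicate 1. CD63, a tetraspanin of late endosomes and exosomes, was 0.14 ± 0.0425 lower and was not called (adjusted p = 0.0584), although all hairpin arrays were below both scramble arrays.

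LAPTM4B and LAMP3 went the other way. LAPTM4B, a membrane protein of late endosomes and lysosomes, was at -0.66 and -0.63 in the scramble arrays, at 0.36 and 0.38 with shRNA#2 and at -0.012 and 0.012 with shRNA#4. Replicates lay close together and the 3 groups stood apart, in the order shRNA#2, shRNA#4, scramble. It rose by 0.83 ± 0.0405 (1.78-fold, adjusted p = 0.000225), by 1.02 ± 0.0467 with shRNA#2 and by 0.65 ± 0.0467 with shRNA#4, a difference of 0.37 ± 0.0467 (adjusted p = 0.00605). LAMP3 (DC-LAMP), a LAMP protein first known from mature dendritic cells, was at -0.20 and -0.09 under scramble, at -0.08 and 0.08 with shRNA#2 and at 0.65 and 0.67 with shRNA#4. Only the shRNA#4 arrays stood clear of the rest. It rose by 0.80 ± 0.0712 with shRNA#4 (1.75-fold, adjusted p = 0.000893), was 0.14 higher with shRNA#2 (adjusted p = 0.229), and differed between the hairpins by -0.66 ± 0.0712 (adjusted p = 0.00419).

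LAPTM4A and LAMP2 differed by hairpin. LAPTM4A, a relative of LAPTM4B, was at -0.31 and -0.44 with shRNA#4, while the scramble and shRNA#2 arrays lay between -0.02 and 0.03. It fell by 0.38 ± 0.0594 with shRNA#4 (adjusted p = 0.00595), and the mean of both hairpins was not called (adjusted p = 0.0512, and 0.0346 without shRNA#4 replicate 1). LAMP2, a receptor of chaperone-mediated autophagy in one of its isoforms, was at -0.02 and 0.02 under scramble, at 0.08 and 0.15 with shRNA#2 and at -0.16 and -0.23 with shRNA#4. The hairpins lay on opposite sides of scramble and differed by 0.31 ± 0.0553 (adjusted p = 0.0168). Its fall of 0.20 with shRNA#4 (adjusted p = 0.0466) was lost without each array in turn, with adjusted p-values from limma between 0.0707 and 0.191. Of the 9 membrane proteins, 4 fell, 2 rose and 3 were not called for the mean of both hairpins. The shares over all genes were 10.6% lower and 14.8% higher.

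Cathepsins are the peptidases of the lysosome, most of them cysteine proteases, with CTSD and CTSE aspartic and CTSA and CTSG serine enzymes. For the mean of both hairpins 8 of the 15 fell and the other 7 were not called, and the median difference was -0.21. Over all genes 10.6% were lower and 14.8% higher in that comparison. CTSA, a carboxypeptidase that also protects NEU1 and beta-galactosidase in a complex, was at 1.02 and 1.24 under scramble, at -0.15 and -0.04 with shRNA#2 and at -0.11 and 0.04 with shRNA#4. The hairpin groups lay on top of each other and far below the nearer scramble array. CTSA fell 2.29-fold (log2 difference -1.20 ± 0.0816, adjusted p = 0.000474). CTSD, the main aspartic endopeptidase, was at 0.81 and 0.87 under scramble, near -0.04 and -0.05 with shRNA#2 and at -0.05 and 0.04 with shRNA#4. It showed the same arrangement with little spread between replicates. It fell by 0.86 ± 0.0477 (1.82-fold, adjusted p = 0.000264), and between the hairpins it differed by -0.04 (adjusted p = 0.75).

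Among the cysteine cathepsins 6 of 11 fell. CTSB, an abundant endopeptidase, was at 0.55 and 0.53 under scramble, at 0.019 and -0.019 with shRNA#2 and at -0.36 in both shRNA#4 arrays. Replicates almost coincided and the 3 groups were apart. CTSB fell by 0.72 ± 0.0402 (adjusted p = 0.000264), by 0.54 with shRNA#2 and by 0.90 with shRNA#4, and the hairpins differed by 0.36 ± 0.0464 (adjusted p = 0.00644, and 0.0508 without shRNA#2 replicate 1). CTSV, a close relative of CTSL, was at 0.67 and 0.86 under scramble, at -0.021 and 0.021 with shRNA#2 and at -0.20 and -0.27 with shRNA#4. It stood in the same order as CTSB, and it fell by 0.89 ± 0.0629 (adjusted p = 0.000496). Between the hairpins CTSV differed by 0.24 ± 0.0727, which was not called (limma adjusted p = 0.085). CTSL, the endopeptidase it resembles, was only 0.21 ± 0.0815 lower and was not called (adjusted p = 0.126). How far the probe sets of this pair cross-hybridise was not analysed here.

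CTSS, which trims the invariant chain in antigen-presenting cells, was at 0.57 and 1.06 under scramble, at 0.03 and -0.03 with shRNA#2 and at -0.32 and -0.06 with shRNA#4. The groups did not overlap, and the scramble arrays lay well apart. It fell by 0.91 ± 0.143 (1.88-fold, adjusted p = 0.00578), with the leukocyte marker values given above standing beside it as well. The fall of 0.82 ± 0.165 with shRNA#2 (adjusted p = 0.0178) was lost without either shRNA#2 array (limma adjusted p = 0.0754 and 0.0847). CTSK, the collagenolytic cathepsin of bone and the next protein-coding gene to CTSS on chromosome 1, was at 0.02 ± 0.0756 (adjusted p = 0.907).

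CTSO, a little-studied cysteine cathepsin, showed the widest gap between hairpins among the 33 genes. It was at 0.25 and -0.14 under scramble, at 0.27 and 0.14 with shRNA#2 and at -0.94 and -1.26 with shRNA#4. The shRNA#2 arrays lay among the scramble arrays, and both shRNA#4 arrays were far below. It fell by 1.16 ± 0.157 with shRNA#4 (2.23-fold, adjusted p = 0.00353), was 0.15 ± 0.157 higher with shRNA#2 (adjusted p = 0.619), and the hairpins differed by 1.30 ± 0.157 (2.47-fold, adjusted p = 0.00543). Its call for the mean of both hairpins (-0.51 ± 0.136, adjusted p = 0.04) thus came from 1 hairpin, and it was lost without scramble replicate 1, either shRNA#2 array or shRNA#4 replicate 2 (adjusted p from limma 0.073 to 0.209).

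CTSZ, a carboxypeptidase, was at 0.33 and 0.22 under scramble, at 0.02 and -0.02 with shRNA#2 and at -0.18 and -0.31 with shRNA#4, with all groups apart. It fell by 0.40 ± 0.058 (adjusted p = 0.00443). Between the hairpins CTSZ differed by 0.25 ± 0.067, which was not called (limma adjusted p = 0.0592). CTSH, an aminopeptidase, was at 0.23 and 0.10 under scramble, at -0.066 and -0.0195 with shRNA#2 and at -0.073 and 0.020 with shRNA#4. All hairpin arrays were below both scramble arrays, and the hairpin groups overlapped each other. It fell by 0.20 ± 0.0559 (adjusted p = 0.0449), but neither hairpin alone was called, and the call was lost without each array but scramble replicate 2 (limma adjusted p up to 0.245 without scramble replicate 1). The remaining cathepsins were not called in any comparison. CTSC, which activates granule serine proteases, was 0.25 ± 0.103 higher (adjusted p = 0.141). CTSW, CTSF, CTSE and CTSG, enzymes of cytotoxic lymphocytes, of many tissues, of the stomach and of neutrophil granules, lay between -0.09 and -0.01 with SEs of 0.0469 to 0.0643.

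TPP1, which removes tripeptides from the amino end of proteins and is mutated in a childhood form of neuronal ceroid lipofuscinosis, was at 1.02 and 1.04 under scramble, at -0.0052 and 0.0052 with shRNA#2 and at -0.16 and -0.23 with shRNA#4. The gap to scramble was many times the distance between replicates. TPP1 fell by 1.13 ± 0.0428 (2.18-fold, adjusted p = 0.000166), the smallest adjusted p among the 33 genes, by 1.03 with shRNA#2 and by 1.22 with shRNA#4. Between the hairpins it differed by 0.19 ± 0.0494 (adjusted p = 0.0492), a call lost without each array in turn (0.0757 to 0.193).

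The enzymes of glycan breakdown held one gene with opposite signs. HEXA, the alpha subunit of the hexosaminidase that degrades ganglioside GM2, was at 0.82 and 1.06 under scramble, at -0.17 and -0.04 with shRNA#2 and at -0.06 and 0.04 with shRNA#4. The hairpin groups overlapped each other and lay far below scramble. HEXA fell by 0.999 ± 0.0824 (adjusted p = 0.000748). NEU1, the sialidase that CTSA protects, was at 0.35 and 0.45 under scramble, at -0.41 in both shRNA#2 arrays and at -0.03 and 0.03 with shRNA#4. The 3 groups stood apart with shRNA#2 lowest, whereas for CTSB shRNA#4 was lowest. NEU1 fell by 0.61 ± 0.0485 (adjusted p = 0.000682), by 0.81 with shRNA#2 and by 0.40 with shRNA#4, and the difference of -0.41 ± 0.056 passed the test (adjusted p = 0.00743, and 0.0525 without shRNA#2 replicate 1).

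IDS, the sulfatase that starts the breakdown of dermatan and heparan sulfate, was at 0.02 and -0.02 under scramble, at -0.33 and -0.22 with shRNA#2 and at 0.54 and 0.41 with shRNA#4. Every shRNA#2 array lay below and every shRNA#4 array above the scramble arrays. IDS fell by 0.28 ± 0.0675 with shRNA#2 (adjusted p = 0.0333) and rose by 0.47 ± 0.0675 with shRNA#4 (adjusted p = 0.00427), and the hairpins differed by -0.75 ± 0.0675 (1.68-fold, adjusted p = 0.00282). The fall with shRNA#2 was lost without either scramble or either shRNA#2 array (limma adjusted p = 0.0604 to 0.164). The difference between the hairpins passed the test without each array in turn.

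Of the genes of sphingolipid breakdown, ASAH1, the acid ceramidase, was at 0.22 and 0.36 under scramble, between -0.007 and 0.0014 with shRNA#2 and at -0.0014 and -0.16 with shRNA#4. All hairpin arrays were below both scramble arrays, and the hairpin groups overlapped each other. It fell by 0.33 ± 0.066 (adjusted p = 0.0144, and 0.0852 without scramble replicate 2). PSAP, the precursor of the saposins that present lipids to these enzymes, was at 0.16 and 0.14 under scramble, at -0.03 and 0.03 with shRNA#2 and at -0.43 and -0.24 with shRNA#4. Most of its difference lay with shRNA#4. PSAP fell by 0.32 ± 0.0633 (adjusted p = 0.0139, but 0.0806 and 0.0628 without scramble replicate 1 and 2), and by 0.49 with shRNA#4. With shRNA#2 the difference of -0.15 was not called (adjusted p = 0.224). The difference of 0.33 ± 0.0731 between hairpins passed the test (adjusted p = 0.0303).

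TFEB and TFE3 move to the nucleus when the nutrient kinase mTORC1 is inactive, so their transcript level is only one layer of their control. TFEB was at 0.14 in both scramble arrays, at -0.04 and -0.24 with shRNA#2 and at -0.07 and 0.04 with shRNA#4. All hairpin arrays were below scramble, but the difference of -0.22 ± 0.0685 was not called (adjusted p = 0.0663, and 0.0328 without shRNA#2 replicate 1). With shRNA#2 it was not called either (-0.28, adjusted p = 0.0517), and it was called without shRNA#2 replicate 1 (0.0386). TFE3 was at -0.04 and -0.03 under scramble, at -0.09 and 0.03 with shRNA#2 and at 0.37 and 0.51 with shRNA#4. It rose by 0.47 ± 0.0686 with shRNA#4 (adjusted p = 0.00456), while shRNA#2 and scramble overlapped (adjusted p = 0.986) and the hairpins differed by -0.47 ± 0.0686 (adjusted p = 0.00935). Its call for the mean of both hairpins (0.24 ± 0.0594, adjusted p = 0.0315) was lost without either scramble array, shRNA#2 replicate 2 or shRNA#4 replicate 2 (0.0623 to 0.141).

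ATP6V0E2-AS1 is a non-coding RNA named for its position antisense to a proton pump subunit gene. It was at -0.39 and -0.30 under scramble, at 0.02 and -0.02 with shRNA#2 and at 0.35 and 0.26 with shRNA#4. The 3 groups stood apart, with shRNA#4 highest. It rose by 0.50 ± 0.0516 (adjusted p = 0.00141), by 0.35 with shRNA#2 (lost without scramble replicate 1 or shRNA#2 replicate 1, limma adjusted p = 0.0526 and 0.0644) and by 0.65 with shRNA#4, and the hairpins differed by -0.31 ± 0.0596 (adjusted p = 0.0216). It says nothing of the level of the pump subunit, which was not analysed here.

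Each hairpin was also set against scramble by itself. Both comparisons use the same scramble arrays, so they are not independent of each other. With shRNA#2, 15 of the 33 genes were lower and 2 higher, LAPTM4B and ATP6V0E2-AS1, with a median difference of -0.22. Over all genes 21.6% were called with this hairpin, 9.54% lower and 12.1% higher, and among protein-coding genes 25.2% were called. With shRNA#4, 17 were lower and 5 higher, with a median of -0.20, against 26.1% called over all genes, 10.4% lower and 15.7% higher. The share called among protein-coding genes was 30.4% with shRNA#4. The fall of CTSZ with shRNA#2 (-0.28 ± 0.067, adjusted p = 0.0334) was lost without scramble replicate 1 or either shRNA#2 array (limma adjusted p = 0.11 to 0.147). The fall of LAMP1 with shRNA#4 (-0.25 ± 0.0564, adjusted p = 0.0227) was lost without either scramble array or shRNA#4 replicate 1 (limma adjusted p = 0.0718 to 0.101). That of LAPTM5 was lost without shRNA#2 replicate 1 for shRNA#2 (0.0564) and without either shRNA#4 array for shRNA#4 (0.0623 and 0.102).

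Tested directly, shRNA#2 against shRNA#4 gave 7 of the 33 genes higher and 6 lower with shRNA#2, with a median difference of -0.02. Over all genes 15.3% were called between the hairpins, 6.64% higher and 8.63% lower, and among protein-coding genes 17.7% were called. CTSO, LAPTM4A, LAPTM4B, CTSB, PSAP, LAMP2 and TPP1 were higher with shRNA#2, and IDS, LAMP3, TFE3, NEU1, ATP6V0E2-AS1 and LAMP1 were lower. Without shRNA#2 replicate 1 the counts were 2 and 2, and without shRNA#2 replicate 2 the count of genes higher with shRNA#2 was 3. The differences of CTSO, LAPTM4B, IDS and LAMP3 passed the test without each array in turn. Those of the other 9 genes were lost without shRNA#2 replicate 1, with adjusted p-values from limma between 0.0508 and 0.174. CD68, CTSA, CTSD and HEXA, among the largest falls, differed between the hairpins by 0.26, -0.07, -0.04 and -0.09, none of which passed the test (adjusted p = 0.494, 0.769, 0.75 and 0.639).

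**Figure D3:**
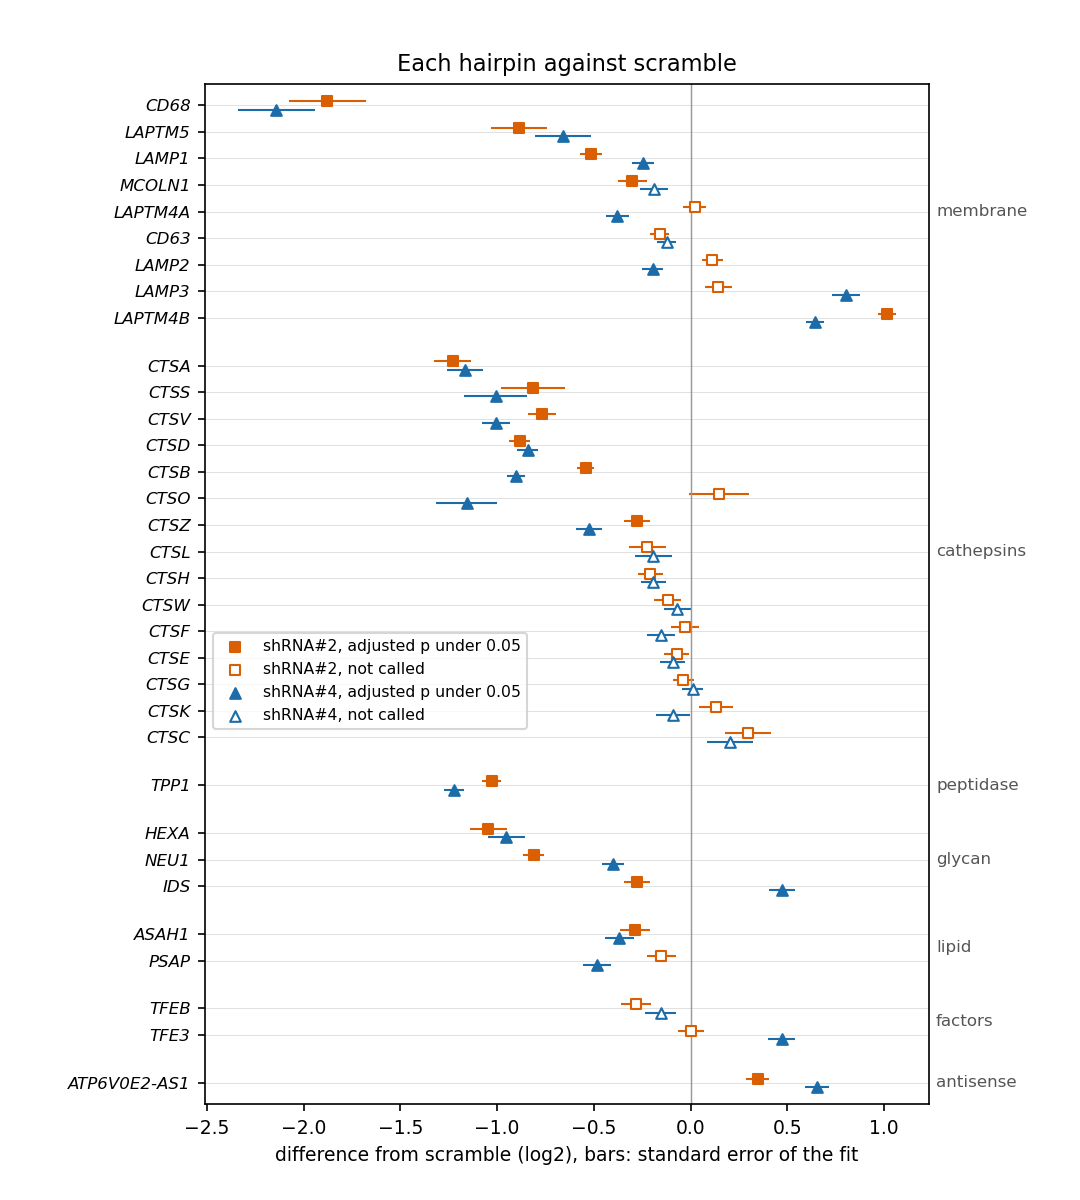
Log2 difference from scramble for each of the 33 genes, with shRNA#2 (squares) and shRNA#4 (triangles), bars showing the standard error of the fit and filled symbols an adjusted p under 0.05. Both hairpins share the 2 scramble arrays. CTSA, CTSD and HEXA had nearly the same difference with both hairpins, whereas CTSO (0.15 and -1.16), IDS (-0.28 and 0.47) and LAMP3 (0.14 and 0.80) did not.

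Other genes of the compartment were read from 6 lists, of which 119 of 208 genes were measured. For the mean of both hairpins, 38 of these were lower and 14 higher (43.7% called, against 25.4% over all genes and 29.6% of protein-coding genes). Over all genes 10.6% were lower and 14.8% higher, shares that stand beside each list below. Of 19 other lysosomal enzymes, 9 fell and 3 rose, with a median of -0.09. NAAA, which hydrolyses N-acylethanolamines, was at 1.14 and 1.27 under scramble, between -0.05 and 0.05 with shRNA#2 and at -0.37 and -0.27 with shRNA#4, and it fell by 1.36 ± 0.0591 (adjusted p = 0.000179). That was a larger fall than any among the cathepsins. SIAE, a sialic acid esterase, fell by 0.60 ± 0.0619, and the heparan sulfate enzymes SGSH and HGSNAT fell by 0.53 ± 0.0503 and 0.50 ± 0.102. HGSNAT fell by 0.76 with shRNA#4 (limma adjusted p = 0.00572) and was not called with shRNA#2 (-0.23, adjusted p = 0.246). The hairpins differed for HGSNAT by 0.53 (adjusted p = 0.0329), and its hairpin and scramble arrays overlapped. The sulfatases ARSG and ARSB rose by 0.75 ± 0.0517 and 0.23 ± 0.0607, and the thioesterase PPT1 rose by 0.59 ± 0.106.

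Of 17 other lysosomal membrane proteins 10 fell and 2 rose, with a median of -0.33. GLMP, a glycosylated partner of a lysosomal transporter, fell by 0.95 ± 0.0653, the vitamin B12 exporter LMBRD1 by 0.70 ± 0.0549 and the cation channel TPCN2 by 0.61 ± 0.059. OSTM1, the partner of the chloride transporter CLCN7, fell by 0.28 ± 0.067 with shRNA#2 and by 1.18 ± 0.067 with shRNA#4. The hairpins differed for OSTM1 by 0.90 ± 0.067 (adjusted p = 0.00215). PIP4P2, a phosphoinositide phosphatase, rose by 0.92 ± 0.0621, and TMEM9, which associates with the proton pump, rose by 0.33 ± 0.0544.

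Of 7 measured genes of the mannose 6-phosphate route and the retromer, 3 fell and 1 rose. NAGPA, which uncovers the mannose 6-phosphate tag on hydrolases, fell by 0.59 ± 0.0602. The receptors of that tag went opposite ways. IGF2R, the large receptor, was at 0.23 and 0.25 under scramble and between -0.10 and 0.04 in the hairpin arrays, and it fell by 0.29 ± 0.0434 (adjusted p = 0.00509). M6PR, the small one, was at -0.46 and -0.49 under scramble and between -0.05 and 0.30 in the hairpin arrays, and it rose by 0.61 ± 0.0498 (adjusted p = 0.000726). VPS35, the core of the retromer, fell by 0.43 ± 0.0411, by 0.18 with shRNA#2 and by 0.68 with shRNA#4. The hairpins differed for VPS35 by 0.51 ± 0.0474 (limma adjusted p = 0.00294). Of 17 genes of tethering, fusion and late endosomes, 7 fell and 2 rose, with a median of -0.03. Among them RILP, which ties late endosomes to dynein, fell by 0.71 ± 0.0547 and SNAPIN by 0.50 ± 0.0787. The fusion proteins VAMP7 and VAMP8 fell by 0.68 ± 0.0632 and 0.45 ± 0.0554. VAMP8 differed between the hairpins by -0.33 ± 0.0639 (limma adjusted p = 0.0202). VTI1B rose by 0.29 ± 0.0731 and STX7 by 0.23 ± 0.0518. Taken singly, VTI1B was called only with shRNA#2 and STX7 only with shRNA#4.

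Among nutrient sensing and autophagy genes, the share called lay near that of all genes when both hairpins were averaged and above it with shRNA#4 alone and between the hairpins, which was not tested. Of 25 genes of nutrient sensing and MiT/TFE control, 3 fell and 3 rose, which is 24.0% called. With shRNA#2 alone 20.0% were called, with shRNA#4 alone 40.0%, and between the hairpins 28.0%, against 21.6%, 26.1% and 15.3% over all genes. Among protein-coding genes the shares were 29.6% for the mean and 25.2%, 30.4% and 17.7% for these comparisons. TFEC, the fourth MiT/TFE factor, was at 0.95 and 1.11 under scramble, at -0.11 and -0.16 with shRNA#2 and at -0.05 and 0.05 with shRNA#4, and it fell by 1.09 ± 0.0623 (adjusted p = 0.000286). FLCN, which acts on the Rag GTPases, fell by 0.36 ± 0.0677, but with shRNA#2 alone it was not called (-0.25, limma adjusted p = 0.0732). RRAGD, one of those GTPases and a known MiT/TFE target, rose by 0.72 ± 0.0654. MITF was at -0.04 ± 0.0456 and was not called. Of 34 autophagy genes, 6 fell and 3 rose (26.5% called) with a median of 0.04. The share called was 20.6% with shRNA#2, 41.2% with shRNA#4 and 35.3% between the hairpins. GABARAPL2, an ATG8 protein of the autophagosome, fell by 0.44 ± 0.0531, and ATG5 of the conjugation machinery rose by 0.37 ± 0.0614.

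**Figure D4:**
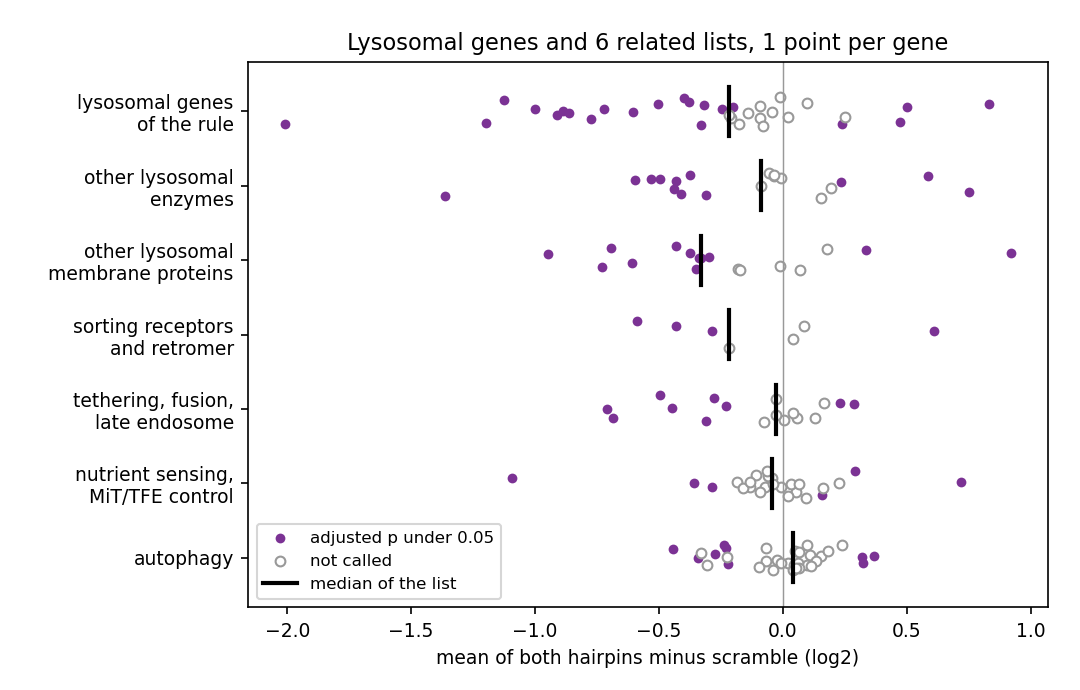
Mean of both hairpins minus scramble (log2, x axis) for the 33 lysosomal genes and 6 related lists, 1 point per gene, filled where the adjusted p was under 0.05, with a bar at each median. The medians of the 33 genes (-0.22) and of other membrane proteins (-0.33) lay below 0, and that of autophagy (0.04) lay just above.

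Some markers of the Caco-2 epithelium fell beside the lysosomal genes. Of 14 such genes 9 were measured, and 5 fell and the other 4 were not called for the mean of both hairpins. Over all genes 10.6% were lower and 14.8% higher in that comparison. The 5 that fell are given first. These were the brush border hydrolase SI (-1.49 ± 0.174), the keratin KRT20 (-1.19 ± 0.206), the microvillus protein VIL1 (-0.61 ± 0.0593), the intestinal factor CDX2 (-0.26 ± 0.0652) and the adhesion molecule EPCAM (-0.15 ± 0.0392). CDX1 (-0.05), KRT19 (-0.007), KRT8 (0.13) and KRT18 (0.30) were not called, and the keratin KRT18 rose by 0.49 ± 0.123 with shRNA#4 (adjusted p = 0.0315). The mean over the 9 was between 0.27 and 0.36 in the scramble arrays, between -0.125 and -0.12 with shRNA#2 and between -0.0013 and 0.015 with shRNA#4. Of 8 fibroblast markers 3 were measured, and VIM, an intermediate filament protein of mesenchymal cells, rose by 0.28 ± 0.0484 and, with shRNA#4, by 0.42 ± 0.0559 (adjusted p = 0.00327), while with shRNA#2 it was not called (0.14, adjusted p = 0.153). The matrix proteoglycans DCN (-0.0051) and LUM (0.22, adjusted p = 0.258) were not called. The part of these markers, and of the state of the epithelium they mark, in the lysosomal values was not tested.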

How the data were processed

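Total RNA of 6 Caco-2 samples was measured on 1 array each, from biotin-labelled sense-strand DNA per the labels' protocols. The values the authors deposited are read here as log2, and they are centred, since the median of each probe set across the 6 arrays was 0 to within 5e-07. Summarisation, background correction, software and log base: not given in the sources used here. Of 48144 probe sets, 16098 were named by 1 symbol through the platform table and RefSeq, 0 by several and 32046 by none. Probe sets of a gene were averaged (779 of 14884 genes).

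All 6 arrays entered 1 limma 3.58.1 fit (R 4.3.3) with 3 groups, moderated variances without a trend (residual degrees of freedom 3, prior 3.09) and p-values adjusted by Benjamini and Hochberg over all genes, with calls at an adjusted p under 0.05. Neither a set test nor a p adjusted over the members alone was used. The labels call the replicates biological, with nothing on separate cultures, so each p-value reflects only how these samples spread, which may be technical. The number of arrays limits the precision, and the median SE was 0.0569 for the mean of both hairpins and 0.0657 for the other comparisons.

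Members, pathway lists, marker lists and motifs were chosen with earlier results of these data known. Every member is accounted for. Values per array are given for called members whose hairpin arrays lie on one side of scramble, for the 6 largest differences each way between hairpins and for the largest of each role. From each pathway list, up to 4 genes each way were taken. TFEB, LAMP2, CTSH and MITF, and per-array values of other genes, were added after their values were seen. Alternatives were quantile normalization, centring each array, a robust prior, a variance trend, array weights, the replicate block, the widest probe set, protein-coding genes only, only the arrays compared, an adjusted p under 0.01, a minimum of 1.5-fold and leaving out each array. The fit was tested on simulated data. Figures used matplotlib 3.10.9 and pandas 2.3.3 (Python 3.11.15).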

Additional observations from a re-analysis of the deposited data

Results flagged for a closer look

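Among the 33 genes and the related lists, 3 genes moved in opposite directions with the 2 hairpins. For these, each hairpin's difference from scramble passed the test, and so did the difference between hairpins (shRNA#2 minus shRNA#4), tested itself in limma. How many of all genes do the same was not counted, so the number is not a result about lysosomal genes. IDS differed by -0.75 ± 0.0675 (adjusted p = 0.00282), but its fall with shRNA#2 was lost without either scramble or either shRNA#2 array. RRAGC, a Rag GTPase of nutrient sensing, fell by 0.20 ± 0.0508 with shRNA#2 (adjusted p = 0.04), rose by 0.33 ± 0.0508 with shRNA#4 (adjusted p = 0.00552) and differed by -0.53 ± 0.0508 (adjusted p = 0.00304). ATG3, an enzyme of ATG8 lipidation, fell by 0.31 ± 0.0603 with shRNA#2 (adjusted p = 0.0159), rose by 0.40 ± 0.0603 with shRNA#4 (adjusted p = 0.00533) and differed by -0.705 ± 0.0603 (adjusted p = 0.00264). The calls of RRAGC and ATG3 were not examined without each array in turn. Both hairpins share the scramble arrays.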

How the results depend on the processing

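No called result changed sign (0 reversed). In some settings none could, since they keep each log2 difference: a robust prior, a variance trend, protein-coding genes only and the replicate block. The widest probe set also left the values of the members unchanged, as none had several probe sets. For the mean of both hairpins, CTSF (-0.18 to 0.0007), CTSG (-0.04 to 0.015) and CTSK (-0.05 to 0.086), which were not called, crossed 0. Of the 21 genes called for the mean of both hairpins, 15 kept the call in each setting of the fit they entered (12 lower, 3 higher), 14 settings for each gene but ATP6V0E2-AS1, which has 13 because it is not protein-coding, and 6 lost it in at least 1: ASAH1, PSAP, CTSH, CTSO, MCOLN1 and TFE3. A minimum of 1.5-fold left 10 lower and 1 higher for the mean of both hairpins, 9 and 1 for shRNA#2, and 10 and 3 for shRNA#4. It left 2 lower and 1 higher between the hairpins, and 10 lower and 5 higher on the related lists. Shares over all genes at this minimum were not counted, so these counts show only how the calls depend on the threshold. An adjusted p under 0.01 left 12 lower and 3 higher for the mean of both hairpins, 10 and 2 for shRNA#2, and 13 and 5 for shRNA#4. It left 4 lower and 4 higher between the hairpins, and 26 lower and 7 higher on the related lists. Shares over all genes were not counted at this threshold either. Protein-coding genes alone left 1 gene higher with shRNA#2, since the antisense RNA was not among them. Without each replicate in turn the counts ran from 13 to 16 lower and 3 to 4 higher (mean), 10 to 14 and 1 to 2 (shRNA#2), 14 to 16 and 5 to 5 (shRNA#4), 2 to 6 and 2 to 6 (between hairpins), and 28 to 36 and 9 to 12 (related lists, with 9 higher without scramble replicate 1 and without shRNA#2 replicate 1). The cause of these losses was not tested; each of these fits holds 1 array fewer.

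With the replicate number as a block the counts were 16 lower and 4 higher (mean), 14 and 2 (shRNA#2), 16 and 5 (shRNA#4), 6 and 8 (between hairpins), and 43 and 15 (related lists). The block ended the calls of CTSH for the mean (adjusted p = 0.0581), ASAH1 with shRNA#2 (0.0552), LAMP2 with shRNA#4 (0.0594) and TPP1 between hairpins (0.0598). It added those of CTSK (0.0323) and CTSZ (0.0292) between hairpins, all from limma. Differences between replicate 1 and 2 correlated across genes, which are not independent replicates, at 0.179 for scramble and shRNA#2, 0.119 for scramble and shRNA#4 and 0.199 for the hairpins. With 2 numbers per group the samples share only a number. The call for the mean was gained by TFEB without shRNA#2 replicate 1 (0.0328) and by LAPTM4A with protein-coding genes only (0.0459) and without shRNA#4 replicate 1 (0.0346), and with shRNA#2 by TFEB under a variance trend (0.0483), with protein-coding genes only (0.0384) and without shRNA#2 replicate 1 (0.0386). For the mean, quantile normalization ended the calls of CTSH (0.0537) and MCOLN1 (0.0674). Filters on dim probe sets were not run, since centred values hold no signal level.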
